A study of Arabidopsis thaliana with 2 samples.

Results

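The annotated copies mir405a, mir405b and mir405d of the Arabidopsis thaliana microRNA locus miR405 were described, 3 of the 153 precursor names in the tag lists of both libraries. Their members were all tags that the authors listed under these names, counted together by read number because the copies share tags. They made up 2605 of 33192 reads in the library of the mutant and 2326 of 12129 reads in the library of wild type. These reads fell into 25 distinct tags, of which 18 were in the mutant library and 20 in the wild-type library.

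In SPARE, the assay used, an adaptor is joined to free 5′ ends of RNA, and the fragments are then copied from primers specific to each microRNA precursor. One library came from a mutant that the labels name only as fiery, with no ecotype given, and the other from wild type of the ecotype Col-0. Both were mixtures of seedlings of 2 weeks with leaves and inflorescences of plants of 5 weeks, amplified in 18 PCR cycles. With 1 library per group, no difference between them has a replicate check. Ranges in parentheses are exact 95% intervals, by Clopper-Pearson for a share and by the conditional binomial for a ratio. PCR reads that carry no molecular identifier are not independent molecules, so these ranges describe counting error alone.

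In plants, DICER-LIKE enzymes cut microRNAs out of hairpin precursors, and a fragment that begins at such a cut marks where the enzyme acted. For a mature RNA on the 3′ arm, the cut next to the loop sets its first nucleotide and the cut next to the base of the stem sets its last. Inverted repeats of transposons can also fold into hairpins, and their small RNAs are often of the longer class that directs silencing of repeats. The miR405 loci are known as loci of this transposon-derived kind.

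All 3 copies carried the same annotated mature RNA of 24 nt, read here as DNA letters from the TAIR10.1 reference (RefSeq annotation), with the seed (bases 2 to 8) in capitals.
miR405 (a, b and d): aTGAGTTGggtctaacccataact
The precursors differed in length and in place. The annotated precursor of mir405a (AT2G22668) covered 157 nt of chromosome 2, positions 9634957 to 9635113, minus strand. That of mir405b (AT5G50717) covered 124 nt of chromosome 5, positions 20632514 to 20632637, plus strand. That of mir405d (AT4G05508) covered 86 nt of chromosome 4, positions 2789656 to 2789741, minus strand. No copy overlapped another annotated gene. The nearest gene was IAA8, an auxin response repressor, 1233 nt from mir405a, while mir405b and mir405d lay 203 and 452 nt from pseudogenes (AT5G50715 and AT4G05510).

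Shown next, on the annotated strand, is the part of each precursor on the mature RNA's side of the most abundant tag. The mature RNA is in capitals.
mir405a (chr2:9634957-9635080, minus strand, nt 34 to 157 of the precursor): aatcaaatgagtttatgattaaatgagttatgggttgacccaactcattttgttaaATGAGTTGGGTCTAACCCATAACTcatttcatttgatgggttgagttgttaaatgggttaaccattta
mir405b (chr5:20632514-20632631, plus strand, nt 1 to 118 of the precursor): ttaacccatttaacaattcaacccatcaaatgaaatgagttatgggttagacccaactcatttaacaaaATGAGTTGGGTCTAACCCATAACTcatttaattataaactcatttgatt
mir405d (chr4:2789656-2789741, minus strand, nt 1 to 86 of the precursor): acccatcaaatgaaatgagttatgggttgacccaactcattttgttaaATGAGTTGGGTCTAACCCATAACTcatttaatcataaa
In mir405b and mir405d the mature RNA lay upstream of the most abundant tag. In mir405a the order was turned round.

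Nearly all reads lay outside the annotated mature RNA and on the strand of mir405b and mir405d. In mir405b the most abundant tag began at nt 119 of the precursor and ended at nt 145, so that 6 of its 27 nt lay inside the annotated precursor of 124 nt. In mir405d the same tag began at nt 98, separated from the end of the annotated precursor of 86 nt by 11 nt, and 0 of its 27 nt lay inside it. In mir405a all 27 nt lay inside the precursor, at nt 7 to 33, but on the opposite strand. The 23 tags on the strand of mir405b and mir405d held 2604 of 2605 fiery reads, and 2322 of 2326 in wild type. These reads thus ran antisense to the annotated mir405a in nearly all cases.

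**Figure D1:**
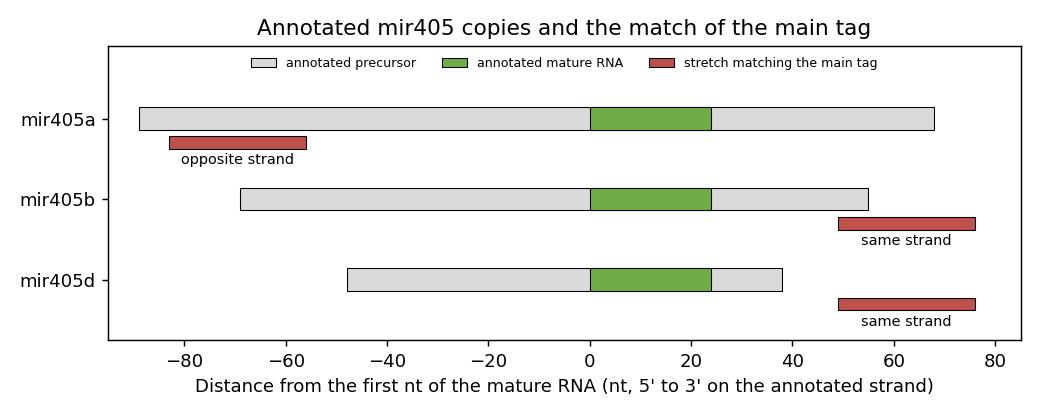
Map of the annotated mir405 copies, aligned at the first nt of the mature RNA (x axis, nt). Grey bars are annotated precursors, green bars the mature RNA and red bars the stretch matching the main tag, which lies 49 nt downstream of the first mature nt in mir405b and mir405d and on the opposite strand in mir405a.

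The most abundant tag was the same in both libraries, and the tags on its strand differed mainly at their 5′ ends. The 3′ ends were nearly fixed. At nt 145 of mir405b ended 2584 of 2605 fiery reads (99.2%, 98.8 to 99.5) and 2279 of 2326 wild-type reads (98.0%, 97.3 to 98.5). The other reads on that strand ended within 2 nt of it. Such a shared end was also usual elsewhere. Among other precursors with at least 30 reads in tags of 35 nt or less, the most frequent last 12 bases held a median of 98.7% of those reads over 15 precursors of the fiery library. Over 18 precursors of the wild-type library the median was 100%. The primer sequences were not used here, so the distance between the primer and this end was not tested.

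The 5′ ends lay at 13 positions of mir405b between nt 105 and nt 121, none of them at an annotated cut. The loop-side cut would leave an end at nt 70, the first base of the mature RNA, and the base-side cut an end at nt 94, the first base after it. Within 1 nt of either, 0 of 2605 fiery reads and 0 of 2326 wild-type reads were found, which allows shares of up to 0.115% and 0.129% (3 counts). With the common 3′ end these cuts would give fragments of 76 and 52 nt. Both exceed the longest tags listed, which had 40 nt (fiery) or 50 nt (wild type), and would appear as tags of those full lengths. Only 1 mir405 read, in fiery, had a tag of 40 nt, and the longest wild-type tag of mir405 had 36 nt. No tag under another precursor name matched within 300 nt of a copy.

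The main 5′ end, at nt 119 and 25 nt beyond the base-side cut, held 1523 fiery reads (58.5%, 56.5 to 60.4) and 1329 wild-type reads (57.1%, 55.1 to 59.2). Its ratio between the libraries, fiery over wild type, was 1.02 (0.95 to 1.10). At the next base, nt 120, lay a fiery share of 9.29% (8.20 to 10.5) and a wild-type share of 8.77% (7.65 to 9.99). These intervals overlap at both positions. The fiery share was 8.45% (7.41 to 9.58) at nt 118, where the wild-type share was 5.12% (4.26 to 6.09). At nt 114 these shares were 2.19% (1.66 to 2.83) and 0.817% (0.493 to 1.27). At nt 115 the fiery share was 7.64% (6.65 to 8.73) and the wild-type share 11.7% (10.4 to 13.0), and at nt 116 they were 12.02% (10.8 to 13.3) and 14.7% (13.3 to 16.2).

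The ratio of these shares, fiery over wild type, was 1.65 (1.32 to 2.08) at nt 118 and 2.68 (1.57 to 4.77) at nt 114. It was 0.656 (0.543 to 0.790) at nt 115 and 0.820 (0.701 to 0.958) at nt 116. Position 117, between the main peaks, held 26 and 20 reads. At nt 114, nt 115, nt 116 and nt 118 the interval of the ratio did not hold 1. At nt 117, nt 119 and nt 120 it did. The shares of 1 library sum to a whole, so the positions are not independent. This sorting reflects counting error alone and is no test between the libraries. No tag shorter than 26 nt is listed in either library. With the common 3′ end, an end beyond nt 120 gives a tag below that length, so the profile is visible only up to 1 base past its main end. The 3 and 8 reads at nt 121 came from a tag that ended 1 base later. An end at nt 110, where wild type had 7 reads, gives a tag of 36 nt, and the fiery list holds none of 36 to 39 nt.

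**Figure D2:**
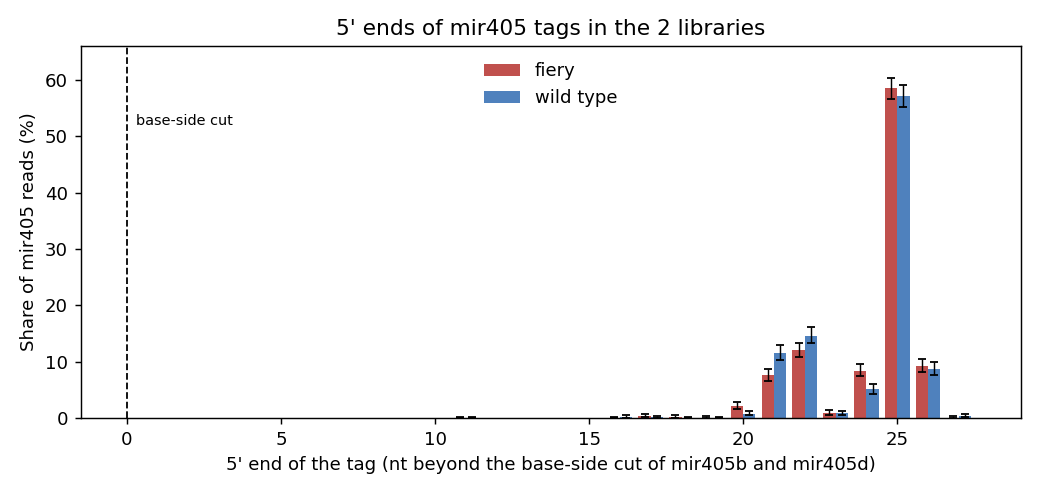
Share of mir405 reads (y axis, %) by 5′ end, in nt beyond the base-side cut of mir405b and mir405d (x axis), for fiery (red) and wild type (blue). Bars are shares of 1 library each with exact 95% intervals, and the highest bars, at 25 nt, stand at 58.5% and 57.1% while the dashed line at the cut has none.

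No tag could be assigned to a single copy. Each of the 25 tags had 3 exact matches in the genome, 1 in each of mir405a, mir405b and mir405d, so that 100% of the mir405 reads had several matches (lower limits 99.9% in fiery and 99.8% in wild type). With 1 mismatch allowed, the tags had 3 to 7 matches. The names given by the authors split these reads in different ways. In fiery, 1751 reads were listed under mir405b and 853 under mir405d. In wild type these numbers were 21 and 2301. Of the 13 tags present in both libraries, with 99.5% (fiery) and 99.1% (wild type) of all mir405 reads, 5 had another copy name in the other library. The main tag was among them, listed as mir405b in fiery and as mir405d in wild type. The shift between names is therefore no measure of use of the copies.

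Few reads were listed under mir405a itself, 1 in fiery and 4 in wild type, in a pair of tags shown here because they alone ran on its strand.
mir405a tag in fiery: ttgttaaatgggttaaccatttaaataata
mir405a tag in wild type: tgttaaatgggttaaccatttaaataata
They began 21 and 22 nt beyond the base-side cut of mir405a and ended 7 nt past the end of its precursor. They also matched the opposite strand across the start of the annotated mir405b precursor and upstream of that of mir405d. The strand annotated as mir405a is in this way the reverse of the strand annotated for the other copies when the surrounding repeat is lined up.

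Reads with several matches were rare elsewhere. Of the other precursors with at least 30 reads, 0 of 58 fiery precursors and 0 of 44 wild-type precursors had more than 50% of their reads in tags with several matches. Over all other precursors such tags held 75 of 30587 fiery reads (0.245%, 0.193 to 0.307) and 31 of 9803 wild-type reads (0.316%, 0.215 to 0.449). Of all reads with several matches, mir405 held 97.2% in fiery and 98.7% in wild type.

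The copies belonged to a larger repeat family. A search with mir405b and 60 nt on each side (244 nt in all) found 68 genomic stretches aligned over at least 180 nt, with 18, 12, 10, 10 and 18 on chromosomes 1 to 5. Without mir405b itself, their identity to it ranged from 69.7% to 94.0% with a median of 86.7%. mir405a was the most alike (94.0% over 216 nt), and mir405d had 90.9% over 219 nt. Of the 65 members other than the annotated copies, 11 overlapped an annotated gene or pseudogene.

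In ungapped windows, the mature RNA and the stretch of the tag matched that family unequally. The mature RNA had its best ungapped match at 5 or more mismatches in every one of the 65 other members (median 8). Without gaps, 1 missing or extra base can raise this count by several, so it does not measure how far the stretch diverged. Matches with gaps were not counted. The main tag had 1 mismatch in 2 members and 2 mismatches in 29, with a median of 3 over the 65. An exact match to either was found only in the 3 annotated copies among the 68 members. Over the whole genome the mature RNA had 4 exact matches. The fourth was its reverse complement on the 5′ arm of mir405b (nt 38 onward), so that both arms of that copy were exact complements there.

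**Figure D3:**
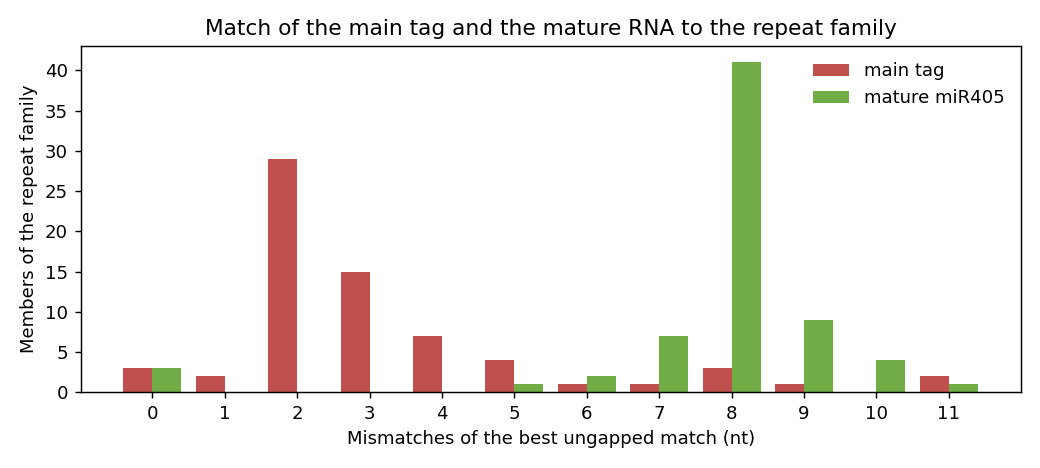
Number of members of the repeat family (y axis, 68 in all) by mismatches of the best ungapped match (x axis) to the main tag (red) and to the mature RNA (green). The 3 annotated copies stand at 0 for both, most other members at 2 or 3 for the tag and 41 at 8 for the mature RNA.

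Predicted folds placed both stretches in stems. In the minimum free energy fold by RNAfold, the annotated precursors had -79.4 (mir405a), -58.8 (mir405b) and -47.3 kcal per mol (mir405d), with 23, 24 and 23 of the 24 mature bases paired. When the windows of mir405b and mir405d were extended to the end of the main tag, 23 and 21 of its 27 bases were paired. In mir405a, where the folded strand holds the reverse complement of the tag inside the annotated precursor, 21 of the 27 bases were paired. None of these paired with the mature RNA. These are predictions from sequence, and longer windows give lower energies, so that the values do not rank the copies.

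Tags of mir405 were short in both libraries. Those of 35 nt or less held 2604 of 2605 fiery reads (99.96%) and 2319 of 2326 wild-type reads (99.7%), with a median length over reads of 27 nt in each. Among all other precursors short tags had a fiery share of 15.8% (15.3 to 16.2) and a wild-type share of 57.5% (56.5 to 58.5), with medians of 40 and 32 nt. The pooled wild-type share includes mir172a, with 96.9% of its 3426 reads in short tags. Of the other precursors with at least 30 reads, 2 of 58 (fiery) and 2 of 44 (wild type) had as large a share of short tags as mir405. The median share per precursor was 2.49% over these 58 and 19.2% over these 44. By overlap of length profiles, averaged over both libraries, mir172a (46.3%), mir156b (44.05%) and mir416 (30.2%) were the most alike among the 30 other precursors that had 30 or more reads both in fiery and in wild type.

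**Figure D4:**
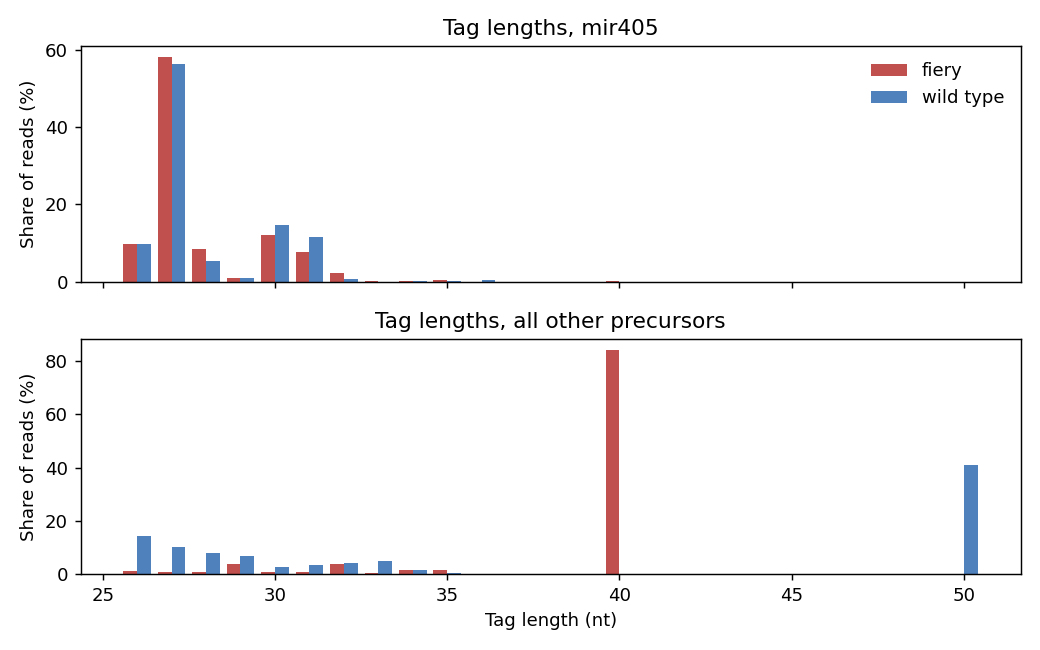
Share of reads (y axis, %) by tag length (x axis, nt) for mir405 (upper panel) and all other precursors (lower panel) in fiery (red) and wild type (blue), 1 library each. The tallest mir405 bars stand at 27 nt in both libraries, whereas the other precursors peak at the longest listed length, 40 nt (fiery) or 50 nt (wild type).

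The share of mir405 was lower in the fiery library than in wild type when all tags were counted. It was 7.85% (7.56 to 8.14) in fiery, the fourth largest of all precursors, and 19.2% (18.5 to 19.9) in wild type, the second largest. The ratio, fiery over wild type, was 0.409 (0.387 to 0.433). A share at least 2-fold lower in fiery was found for 38.3% of the 47 precursors whose reads came to 100 or more over both libraries, and one at least 2-fold higher for 40.4%, so differences of this size were common. Beside it, mir398c, most abundant in fiery, had a ratio of 49.4 (36.9 to 67.9), and mir172a, most abundant in wild type, had 0.0273 (0.0239 to 0.0310).

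The direction was reversed among short tags with all precursors kept. Among tags of 35 nt or less alone, mir405 had a fiery share of 35.1% (34.0 to 36.2) and a wild-type share of 29.2% (28.2 to 30.2), a ratio of 1.20 (1.14 to 1.27). Such tags were 22.4% of the whole fiery library, against 65.6% in wild type. Among tags longer than 35 nt, mir405 had 1 of 25768 fiery reads and 7 of 4175 wild-type reads. Whether the lower share in fiery goes with the different mix of tag lengths in the libraries was not tested.

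**Figure D5:**
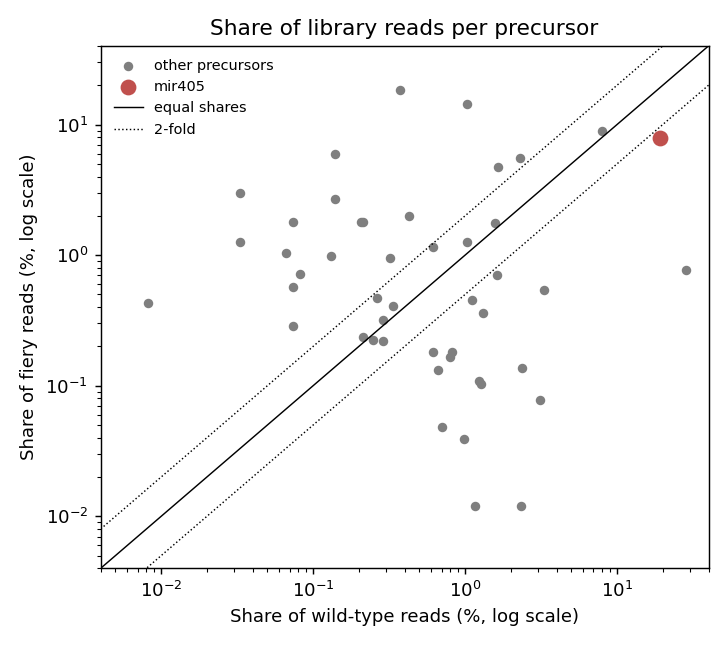
Share of library reads in fiery (y axis, %, log scale) against wild type (x axis, %, log scale) for the 47 precursors whose reads came to 100 or more over both libraries. Each point is 1 precursor, the solid line marks equal shares and the dotted lines a 2-fold difference, and mir405 (red) lies below the lower dotted line at 19.2% and 7.85%.

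Of 20 other precursors linked to repeats or of doubtful status, 11 had a read. The 3 with at least 100 reads, mir414, mir416 and mir845b, all had a share at least 2-fold lower in fiery, with ratios of 0.0399 (0.0206 to 0.0709), 0.430 (0.354 to 0.522) and 0.0680 (0.0372 to 0.117). Over the 47 precursors compared, 38.3% were that much lower. The median of the 3 was 0.0680, against 1.12 over the 47. The list was chosen with earlier results of these data known, and the 47 include these 3 and mir405. The contrast therefore describes 3 precursors and is no test. With only tags of 35 nt or less, mir416 turned to 1.29 (1.06 to 1.57), while mir414 had 0.0574 (0.0115 to 0.177) and mir845b 0.204 (0.112 to 0.351). The short tags of mir172a were kept in these shares, and ratios without them were not computed. mir172a was 28.25% of the wild-type library and 0.771% of the fiery library. Short tags made up 96.9% of its wild-type reads and 49.2% of its fiery reads. Whether the turn of mir416 holds without mir172a was therefore not tested. mir845b gives small RNAs against retrotransposons, and mir414 and mir416 are loci whose status as microRNAs is doubted. Several genomic matches were seen for tags of 3 of the 11, namely mir401, mir404 and mir414. mir404 came closest to mir405, with 2 reads in fiery and 27 in wild type, all in tags with 2 matches. The others had few reads in fiery and wild type: 1 and 3 for mir406, 15 and 14 for mir407, 26 and 15 for mir419, and 7 and 43 for mir420. In wild type alone mir401 had 2 reads, mir418 had 20 and mir426 had 5.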

How the data were processed

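The deposited files list tags with their read counts under a precursor name chosen by the authors, and the counts were not normalised as far as the values show. Per the labels' protocols, RNA was depleted of ribosomal RNA, ligated, reverse transcribed with precursor-specific primers and amplified. Bowtie and TAIR10 are named in the submitters' processing notes, without version or settings. Tags were searched by exact match, and with 1 mismatch, on both strands of TAIR10.1. The repeat family came from blastn 2.17.0 (E-value up to 1e-05), with mismatches counted in ungapped windows on both strands. Folds used RNAfold 2.7.2, and other steps Python 3.11.15, scipy 1.17.1 and pandas 2.3.3. The library, not the tag, is the unit, so no test between groups was run. The rule for naming took the tags with at least 5% of mir405 reads in a library (their sequences and single counts are not reported here), the most abundant other precursor of each library, the 3 most alike in tag length, and all members of the list with a read. The members and lists were chosen with earlier results of these data known, and the search for the repeat family and the folds were added after the tags had been seen.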

Additional observations from a re-analysis of the deposited data

How the results depend on the processing

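The ratio of mir405 shares, fiery over wild type (0.409), was 1.20 with only tags of 35 nt or less, mir172a included, which reverses its direction. It was 0.0231 (0.000514 to 0.180) with only tags longer than 35 nt, from 1 and 7 reads. It was 0.347 with distinct tags counted once, 0.361 without mir398c and mir172a, 0.367 without the main mir405 tag, 0.786 relative to the median ratio (0.520) of the 31 precursors that had 30 or more reads in both, and 0.416 with fiery thinned to the wild-type depth. Relative to that median it was no longer 2-fold lower. Over the 47 precursors compared the median was 1.12, and the mir405 ratio was not scaled by it. The share at the main 5′ end (58.5% in fiery, 57.1% in wild type) was 76.2% and 71.0% within 1 nt, 16.7% and 15% of distinct tags, and 0% in both with only tags longer than 35 nt (1 and 7 reads). The share of short tags was 94.4% and 95% of distinct tags. The share at the annotated cuts was 0% within 3 nt as well, and that of reads with several matches was 100% with 1 mismatch allowed. No paired analysis was possible because each group has 1 library, and for the same reason no replicate could be left out. The 25 listed mir405 tags match all 3 copies, so more reads of these tags would not tell the copies apart. In an alternative added after the data were seen, with only tags of 35 nt or less, the ratio of mir416 turned from 0.430 to 1.29, and those of mir414 and mir845b stayed below 1 (0.0574 and 0.204). The short tags of mir172a were kept in these shares, so whether the turns of mir405 and mir416 hold without them was not tested.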
